A study of Mus musculus with 12 samples.

Results

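Zinc finger genes with symbols from Zfp700 to Zfp999 were examined in Myh11 lineage-marked smooth muscle cells (SMCs) of the mouse thoracic aorta. Members were chosen by symbol, with their difference between genotypes in these libraries already known, as the rows of the deposited count matrix whose Ensembl identifier maps to such a symbol, which gave 130 of 52636 genes, of which 128 are annotated as protein coding and 2 as transcribed unprocessed pseudogenes. Bulk RNA was measured in 12 libraries, in pairs from the ascending aorta with the arch (hereafter ascending) and from the descending thoracic aorta of 3 mice per genotype, GFPiSMC and Tgfbr1/2iSMCKO. GFPiSMC mice carried Myh11-CreERT2 and the mT/mG reporter, in which Cre turns on membrane GFP. Tgfbr1/2iSMCKO mice carried the same 2 transgenes together with floxed alleles of Tgfbr1 and Tgfbr2, the genes for the type I and type II receptors of TGF-β. Both genotypes were labelled C57BL/6J, received tamoxifen for 5 days, and were studied at 12 weeks of age. Tamoxifen was given mainly at 2 mg/d from 11 weeks of age, and the labels also list 1 mg/d at 4 weeks without saying whether any of these mice had it. Because the Cre transgene is on the Y chromosome, the mice were male. Controls had no floxed alleles, so the mouse line and the receptor deletion cannot be told apart in any difference between genotypes.

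These genes encode mostly C2H2 zinc finger proteins, in which each finger folds around a zinc ion and contacts a few bases of DNA. Many also carry a KRAB domain, which recruits the corepressor Trim28 and, through it, the histone methyltransferase Setdb1. In the mouse, KRAB zinc finger genes lie in tandem clusters that grew by duplication, differ between strains, and are best known for repressing transposable elements. A reading frame with at least 1 C2H2 pattern was found for 121 of the 128 coding members, with a median of 11 fingers and at most 23, in Zfp748. The 7 without the pattern were Zfp703, Zfp704, Zfp750, Zfp781, Zfp839, Zfp957, and Zfp972. The core of the KRAB A box was matched in 87 members.

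The largest differences between genotypes were in a cluster on chromosome 2, and the promoters of Zfp970, Zfp971, and Zfp972 and of Zfp931, the next gene beyond them, are shown because they show how alike these copies are. Each runs from 250 bases before to 50 bases after the transcription start (RefSeq, GRCm38.p6), 5′ to 3′ on the gene's own strand, with CG dinucleotides in capitals.
Zfp970 (chr2:177464492-177464791, plus strand): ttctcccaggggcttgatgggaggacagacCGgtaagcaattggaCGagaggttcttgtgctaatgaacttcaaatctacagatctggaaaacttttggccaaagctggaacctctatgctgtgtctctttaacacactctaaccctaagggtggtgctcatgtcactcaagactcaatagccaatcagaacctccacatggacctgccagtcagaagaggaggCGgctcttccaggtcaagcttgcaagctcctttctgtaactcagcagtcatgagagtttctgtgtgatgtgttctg
Zfp971 (chr2:178023034-178023333, plus strand): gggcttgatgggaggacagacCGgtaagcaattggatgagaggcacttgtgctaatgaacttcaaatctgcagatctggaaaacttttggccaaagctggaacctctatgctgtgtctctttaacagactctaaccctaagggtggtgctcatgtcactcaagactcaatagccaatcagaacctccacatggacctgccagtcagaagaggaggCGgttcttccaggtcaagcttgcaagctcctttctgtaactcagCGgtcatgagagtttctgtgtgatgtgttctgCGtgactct
Zfp972 (chr2:177925601-177925900, minus strand): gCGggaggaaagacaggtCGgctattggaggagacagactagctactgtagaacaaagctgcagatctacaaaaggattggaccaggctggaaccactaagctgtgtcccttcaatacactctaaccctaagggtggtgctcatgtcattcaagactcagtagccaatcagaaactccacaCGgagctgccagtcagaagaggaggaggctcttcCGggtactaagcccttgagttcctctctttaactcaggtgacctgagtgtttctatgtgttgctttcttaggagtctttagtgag
Zfp931 (chr2:178078376-178078675, minus strand): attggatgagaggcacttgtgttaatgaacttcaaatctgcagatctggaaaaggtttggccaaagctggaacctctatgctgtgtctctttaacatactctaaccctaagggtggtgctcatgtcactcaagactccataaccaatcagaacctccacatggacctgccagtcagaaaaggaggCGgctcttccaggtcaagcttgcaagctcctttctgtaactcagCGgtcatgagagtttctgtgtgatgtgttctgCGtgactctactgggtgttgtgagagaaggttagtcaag
The windows start at different points of the copied sequence, so identity was taken over the aligned part. The promoters of Zfp970 and Zfp971 were 97.6% identical over 291 alignment positions, and that of Zfp931 was 95.4% identical to Zfp970 over 261 and 97.0% identical to Zfp971 over 270. The promoter of Zfp972 was less alike, at between 77.2% and 78.8% to the others. They held 3 CG dinucleotides in Zfp970 and Zfp931 and 4 in Zfp971 and Zfp972. The median was 7 over all 32851 promoters of the same length and 9 over the promoters of members. Of all promoters, 43.6% held at most 5. Of all windows of 50 bases in the transcripts, 49.7% in Zfp970, 51.1% in Zfp971, 56.5% in Zfp972, and 23.3% in Zfp931 occurred also in another gene, so reads could be split or moved between copies in the authors' counting. Over the 130 members the median of this share was 5.80%, and 22 members exceeded 50%.

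Total counts were between 20467027 and 31392396 per library, from 9208 to 20000 sorted cells. Markers of SMCs summed to between 32970 and 46940 CPM (counts scaled to a common library total), those of fibroblasts to between 15.9 and 236, of endothelial cells to between 54.0 and 104, and of macrophages and leukocytes to between 5.47 and 17.7. Of these 25 markers, the endothelial cadherin Cdh5 alone passed the thresholds between genotypes and was higher in Tgfbr1/2iSMCKO cells, and its part in the results for zinc finger genes was not tested. Tgfbr1 was at 235 ± 35.3 CPM in GFPiSMC and 251.5 ± 33.0 in Tgfbr1/2iSMCKO cells, and Tgfbr2 at 106 ± 13.3 and 89.0 ± 12.5 (SD, n = 6 libraries of 3 mice). These counts span whole genes and do not check the deletion of the floxed exons.

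Zfp970 (ENSMUSG00000078866.10, chr2:177464733-177478129, plus strand, GRCm38) encodes a KRAB protein with 14 fingers. GFPiSMC replicates 1, 2, and 3 had 248, 266, and 97 counts in the ascending and 245, 328, and 153 in the descending segment. Tgfbr1/2iSMCKO replicates 1 and 2 had 0 counts in both segments, and replicate 3 had 14 and 23. The genotypes did not overlap, and the gene was therefore absent from the counts of 2 Tgfbr1/2iSMCKO mice rather than of all 3. The mean level was 8.21 ± 2.67 CPM in GFPiSMC and 0.204 ± 0.333 CPM in Tgfbr1/2iSMCKO libraries (SD, n = 6 libraries of 3 mice).

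Zfp971 (ENSMUSG00000074519.11, chr2:178023284-178034022, plus strand) encodes a KRAB protein with 12 fingers. GFPiSMC replicates 1, 2, and 3 had 202, 221, and 180 counts in the ascending and 89, 231, and 236 in the descending segment. In Tgfbr1/2iSMCKO mice the ascending library of replicate 1 had 8 counts and the other 5 libraries had 0. The level was 7.24 ± 2.03 CPM in GFPiSMC and 0.0458 ± 0.112 CPM in Tgfbr1/2iSMCKO libraries. In the descending segment, where every Tgfbr1/2iSMCKO library was at 0, Zfp971 was at least 60.1-fold lower against a floor of 3 counts per library (0.116 CPM). Neither Zfp970 nor Zfp971 was thus silent in all 6 Tgfbr1/2iSMCKO libraries. In bulk RNA, fewer cells that express a gene and less RNA per cell cannot be told apart.

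**Figure D1:**
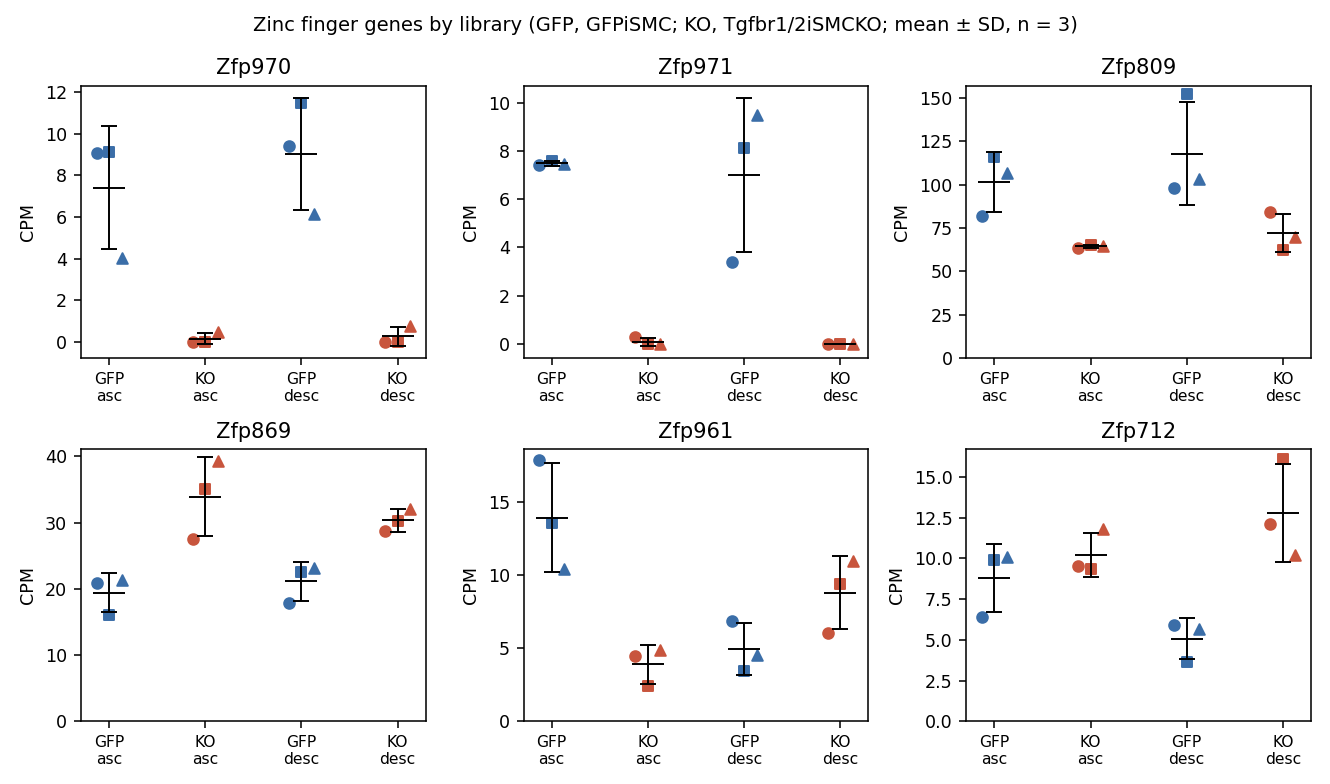
CPM of 6 zinc finger genes in each library (circle, square, and triangle, replicates 1, 2, and 3; black bars, mean ± SD, n = 3) for GFPiSMC (GFP) and Tgfbr1/2iSMCKO (KO) mice in ascending (asc) and descending (desc) segments. Zfp970 and Zfp971 lie at or near 0 in every KO library, whereas Zfp961 is lower in KO in the ascending segment and higher on average in the descending segment.

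Only 2 members were at 0 in all 6 Tgfbr1/2iSMCKO libraries and counted in GFPiSMC, and both were close to the limit of detection. The share of all genes under this rule is not given, so the counts of silent members, here and under other settings, are a description. Zfp972 (ENSMUSG00000074529.10, chr2:177903340-177925613, minus strand) had 7, 5, and 6 counts in the GFPiSMC ascending libraries and 0 in the descending ones. Zfp966, also on chromosome 2, had 3 counts in 1 GFPiSMC library. In the opposite direction, Zfp965 had 4 counts and Zfp973 had 3 counts in 1 Tgfbr1/2iSMCKO library each and 0 in all GFPiSMC libraries. Zfp967 and Zfp968 were at 0 in all 12 libraries. The transcripts of these genes other than Zfp972 are nearly all repeated elsewhere, with between 84.7% (Zfp973) and 100% (Zfp967) of windows shared.

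Zfp970, Zfp972, and Zfp971 lie within a stretch of 1235 kb in which every gene with appreciable counts was lower in Tgfbr1/2iSMCKO cells. Its limits, the start of Gm14295 and the end of Zfp971 (chr2:176798612-178034022), were set after the values were seen. The 36 genes of the stretch summed to between 1428 and 2062 counts in each GFPiSMC library and to between 2 and 33 in each Tgfbr1/2iSMCKO library. All 13 genes that averaged 10 counts or more in GFPiSMC passed the thresholds as lower (a log2 fold change beyond 1 in size at an adjusted p below 0.05). The limits and the minimum in GFPiSMC both favour such genes, so this count is a description. Of these 13 genes, 7 had 0 counts in all 6 Tgfbr1/2iSMCKO libraries. Among the genes below that minimum, Gm14414, Gm14323, and Gm14407, with at most 7 counts in any library, were counted in both genotypes. Over the genome, 15 genes at 0 in this way were found, or 0.0789% of those as well counted in GFPiSMC, and 0 of the 15 were zinc finger members. The limits of the stretch were drawn around such genes, so its number of them is not compared with this share. In the opposite direction, 5 genes (0.0261%) were at 0 in every GFPiSMC library while averaging 10 counts or more in Tgfbr1/2iSMCKO, and none was in the stretch or a zinc finger member.

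The neighbours within 500 kb of Zfp972 that were lower are predicted genes, and all but Gm14327 encode fingers. Gm14326 had between 151 and 289 counts in GFPiSMC and 0 in all Tgfbr1/2iSMCKO libraries, and was at least 67.4-fold lower. Gm14322 had between 103 and 166 counts against 0, and was at least 42.9-fold lower. Gm14325 had between 228 and 385 counts in GFPiSMC, and 6 in a single Tgfbr1/2iSMCKO library. Their reading frames hold 15, 8, and 14 fingers. Gm14403 kept between 0 and 8 counts in Tgfbr1/2iSMCKO against 97 to 159, and Gm14327, which overlaps Zfp972 on the opposite strand, had 3 counts in 1 library against 28 to 64. Of the 12 genes with a coding transcript among the 13, 10 encode at least 1 finger and 7 matched the KRAB core. Between 27.8% and 88.8% of the windows of these genes were shared with another gene.

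The stretch ended sharply on the side of Zfp931. Zfp931 (chr2:178067695-178078476, minus strand) lies 33673 bases beyond the end of Zfp971 and had between 601 and 1085 counts in GFPiSMC and between 550 and 914 in Tgfbr1/2iSMCKO libraries. Its log2 fold change was 0.07 (SE 0.16). Within 1 Mb on either side of the stretch, 8 genes were tested and none passed the thresholds, though 6 had a log2 fold change below 0. Phactr3, beyond Zfp931, had −0.69 (SE 0.22) and was below all GFPiSMC libraries in every Tgfbr1/2iSMCKO library. Gm6710, on the side of Gm14295, had 0.20 (SE 0.69). At the other end the limit could not be placed closely, because the genes beyond Gm14295 had few counts. Gm14305 had 0 to 13 counts in GFPiSMC and 0 to 10 in Tgfbr1/2iSMCKO libraries. Farther out, 2210418O10Rik had 4 to 14 against 0 to 2 and Gm14288 had 4 to 17 against 0 to 6, and neither had enough counts for the test. Values on this side went both ways. Gm4724, still farther out, had 0 to 18 against 23 to 46 and a log2 fold change of 2.1 (SE 0.71) that did not pass the thresholds. Of the windows, 100% in 2210418O10Rik and Gm14288 and 99.8% in Gm4724 occurred also in another gene.

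**Figure D2:**
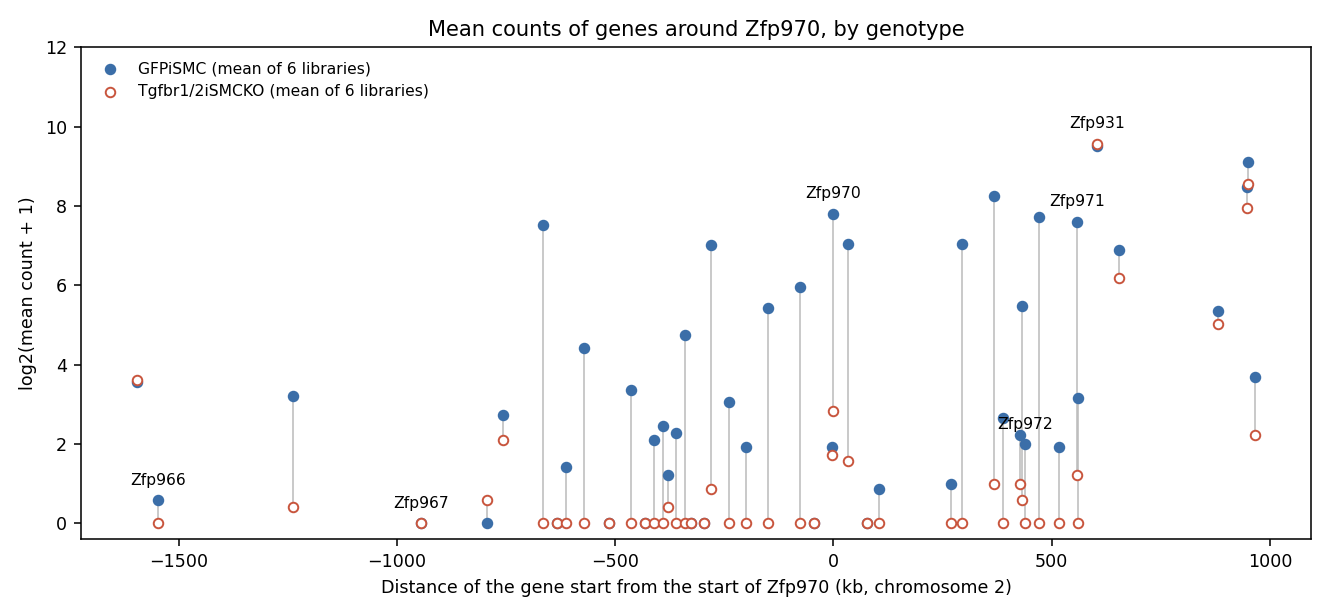
Mean counts of 6 libraries per genotype, as log2(count + 1), for genes around Zfp970 on chromosome 2, against the distance of the gene start from that of Zfp970. Filled GFPiSMC and open Tgfbr1/2iSMCKO points of a gene are joined, and the open points lie below 3 on this scale from Gm14295 to Zfp971 but overlie the filled point at Zfp931.

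Across the family, 116 members had enough counts for the test and 14, with at most 22 counts in any library, did not. The members were proposed with this contrast in view, so its counts are a description. Over both segments 2 members, Zfp970 and Zfp971, were past both thresholds as lower beside 1.64% of all 22320 genes tested, and 0 were past them as higher beside 1.03%. The log2 fold change was above 0 for 84 of the 116, beside 53.7% of all genes, and its median was 0.21 beside 0.04 over all genes tested and 0.13 over the 235 other Zfp genes tested. Scaling by library size alone moved the median of all genes to 0.16 and that of the members to 0.33, with 92 of the 116 above 0 beside 65.4% of all genes. For 80 members the log2 fold change was within 0.5 of 0. Summed over the 130 members, the level in ascending libraries was 2165 ± 53.2 CPM in GFPiSMC and 2243 ± 17.8 CPM in Tgfbr1/2iSMCKO. In descending libraries it was 2163 ± 59.0 and 2273 ± 85.4 CPM (SD, n = 3). Zfp970 and Zfp971 averaged only 8.21 and 7.24 CPM in GFPiSMC libraries, so this total cannot show their difference between genotypes.

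Zfp809 and Zfp869 were the remaining members with an adjusted p under 0.05 at any fold by edgeR, which 3 members reached as lower beside 3.23% of all genes and 1 as higher beside 1.8%. DESeq2 gave 9 of the 116 members there, beside 2034 of the 22320 genes tested. It added Zfp712, Zfp800, Zfp872, Zfp945, and Zfp991, and edgeR on counts summed per mouse gave 1, Zfp971. Zfp809 (chr9:22225714-22243354), a KRAB protein known for silencing retroviral elements together with Trim28, had between 81.9 and 152 CPM in GFPiSMC and between 62.1 and 84.0 CPM in Tgfbr1/2iSMCKO libraries. The groups overlapped by 1 library, the descending library of Tgfbr1/2iSMCKO replicate 1. Its log2 fold change was −0.68 (SE 0.14), and no window of its transcript was shared with another gene. Zfp869 (chr8:69706332-69710724) had at most 23.1 CPM in GFPiSMC and between 27.5 and 39.3 CPM in Tgfbr1/2iSMCKO libraries, with no overlap and a log2 fold change of 0.66 (SE 0.15). Besides Zfp970 and Zfp971, Zfp800 was below all GFPiSMC libraries in every Tgfbr1/2iSMCKO library, with a log2 fold change of −0.58 (SE 0.16). Beside Zfp869, Zfp945 was above them in every library, with 0.48 (SE 0.14). Such separation was found for 3 members lower and 2 higher, beside 2.89% and 1.51% of all genes tested.

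Within segments, calls among the members were few. In the ascending segment Zfp971 and Zfp961 were past both thresholds as lower beside 0.811% of all genes, and 0 members as higher beside 0.341%. In the descending segment Zfp971 was past them as lower beside 0.995% of all genes, and Zfp712 as higher beside 0.426%. Zfp970 was not past them within either segment, where its log2 fold changes were −5.47 (SE 1.31) and −5.02 (SE 1.26), the values of replicate 3 standing apart from those of the other Tgfbr1/2iSMCKO mice. Its call over both segments was lost with counts summed per mouse, and the ascending call of Zfp971 was lost without GFPiSMC replicate 1 or 2.

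Zfp961 (ENSMUSG00000052446.17, chr8:71951038-71993792), a KRAB protein with 11 fingers, had 17.8, 13.5, and 10.4 CPM in GFPiSMC ascending libraries and 4.43, 2.38, and 4.87 CPM in Tgfbr1/2iSMCKO ascending libraries. In the descending segment it had 6.87, 3.43, and 4.50 CPM in GFPiSMC and 6.05, 9.40, and 10.9 CPM in Tgfbr1/2iSMCKO libraries. The genotypes were separate in the ascending and overlapped in the descending segment. The log2 fold changes were −1.83 (SE 0.39) and 0.83 (SE 0.38), and their difference was 2.67 (SE 0.54). This difference had the smallest unadjusted p of the members (0.000311) but an adjusted p of 1 by edgeR's quasi-likelihood test over all genes, and an adjusted p of 0.00393 by DESeq2. The ascending call of Zfp961 was lost when any of the 6 mice was left out.

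Zfp712 (ENSMUSG00000090641.2, chr13:67038596-67061170), a KRAB protein with 20 fingers, had 5.91, 3.65, and 5.67 CPM in GFPiSMC and 12.1, 16.1, and 10.2 CPM in Tgfbr1/2iSMCKO descending libraries, without overlap. In the ascending segment it had 8.81 ± 2.07 and 10.2 ± 1.36 CPM (SD, n = 3), and the groups overlapped. The log2 fold change was 1.33 (SE 0.30) in the descending and 0.22 (SE 0.30) in the ascending segment, and the difference of 1.12 (SE 0.42) had an adjusted p of 1 by edgeR. The descending call of Zfp712 was also lost when any of the 6 mice was left out.

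Zfp827, which has a human counterpart that binds the NuRD complex at telomeres, had the third smallest p of the difference. Its ascending libraries had 20.3, 18.9, and 14.6 CPM in GFPiSMC and 1.99, 5.05, and 5.09 CPM in Tgfbr1/2iSMCKO. The descending libraries had 17.3, 5.78, and 17.8 CPM and 10.6, 3.83, and 30.1 CPM, so that Tgfbr1/2iSMCKO replicates 2 and 3 held the lowest and the highest value of that segment. The difference of the genotype effect between segments was 2.27 (SE 0.91, adjusted p = 1 by edgeR). By edgeR no gene at all passed this test (0% of 22320), while 4 of the 116 members and 2.95% of all genes had an unadjusted p under 0.05. DESeq2 called 8 genes, Zfp961 among them.

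**Figure D3:**
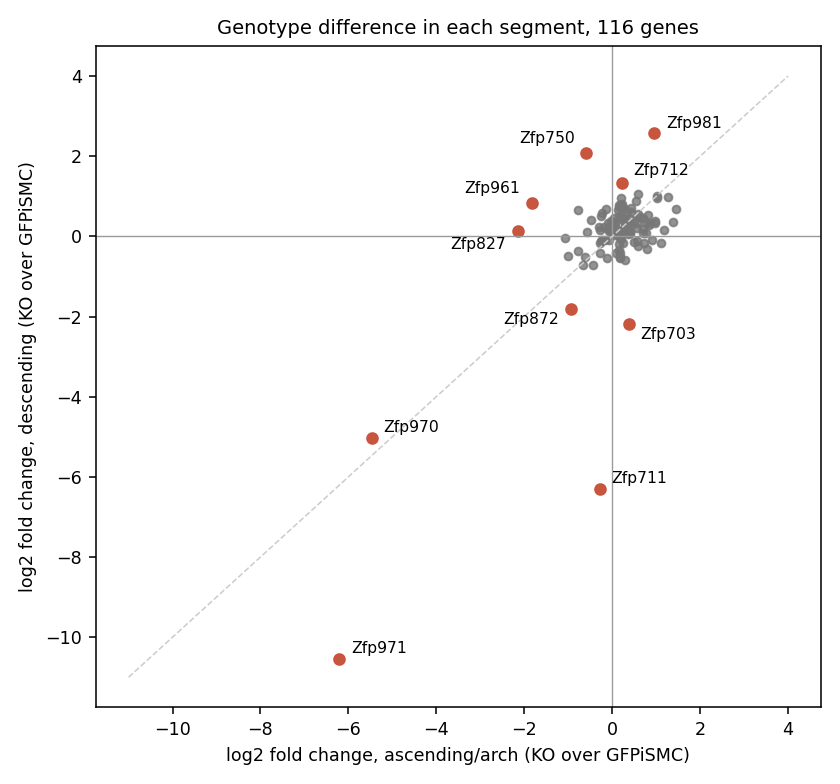
Log2 fold change of Tgfbr1/2iSMCKO (KO) over GFPiSMC in the ascending (x) and descending (y) segment for the 116 members tested, with equal values on the dashed line. Most members lie near 0, Zfp970 and Zfp971 lie far below it in both segments, and Zfp961 and Zfp827 lie below 0 in the ascending segment only. The value of Zfp711, an X-linked gene, rests on 0 counts in all 3 descending KO libraries against 25, 4, and 0 counts.

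Between segments, over both genotypes, no member passed the test, beside 0.797% of all genes (178 of 22320). An unadjusted p under 0.05 was reached by 3 of the 116 members and by 5.58% of all genes. Zfp783 had the smallest p, with 1.43 ± 0.167 CPM in ascending and 0.554 ± 0.283 CPM in descending GFPiSMC libraries, and 1.56 ± 1.08 and 0.886 ± 0.454 CPM in Tgfbr1/2iSMCKO (SD, n = 3). Its log2 difference of descending from ascending was −1.08 (SE 0.43, adjusted p = 0.691 by edgeR). Zfp981 and Zfp850 followed on the lower side with −1.07 (SE 0.64) and −0.94 (SE 0.60). On the higher side were Zfp811 with 0.86 (SE 0.36), Zfp830, a nuclear protein needed in the early embryo, with 0.62 (SE 0.29), and Zfp808 with 0.77 (SE 0.36). DESeq2 called no member either.

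Of the 130 members, 92 lay in 14 clusters, taken as at least 3 members whose neighbours were within 1 Mb. The cluster on chromosome 2 held 11 members, of which 4 were tested: Zfp970 and Zfp971, and Zfp831 (−0.04, SE 0.26) and Zfp931 at its ends. In 12 of the other clusters the median log2 fold change was between 0.17 and 0.47. The cluster on chromosome 4 had 16 members, 13 tested, with a median of 0.45 and a range from −0.23 to 1.66. Its highest value, of Zfp981, rested on between 0 and 14 counts in GFPiSMC and between 5 and 19 in Tgfbr1/2iSMCKO libraries. The cluster on chromosome 17 from Zfp948 to Zfp945 also had 13 members tested, with a median of 0.20 and a range from −0.54 to 0.48.

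The 3 members on chromosome 9 from Zfp872 to Zfp810 were the other cluster with a median below 0 (−0.68). Zfp872, a KRAB gene next to Zfp809, had between 5.21 and 13.8 CPM in GFPiSMC and between 0.495 and 6.22 CPM in Tgfbr1/2iSMCKO libraries, with overlap and a log2 fold change of −1.37 (SE 0.47). Zfp809 lies beside it, and Zfp810 had 0.05. Tgfbr2 is on the same chromosome at chr9:116084293-116175360, whereas this cluster spans chr9:22188090-22307648. The member nearest to Tgfbr2 was Zfp949, outside the cluster, at 27.5 Mb. Tgfbr1 (chr4:47353222-47414931) was 98.1 Mb from Zfp990, the nearest member.

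**Figure D4:**
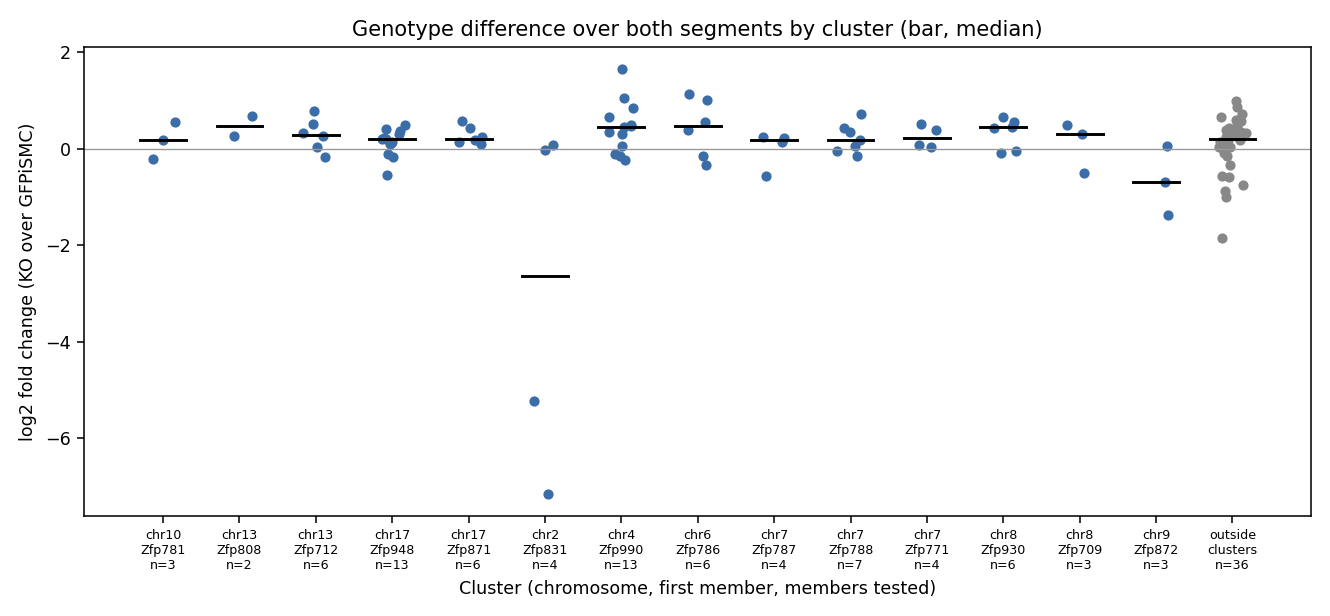
Log2 fold change of Tgfbr1/2iSMCKO (KO) over GFPiSMC over both segments for each tested member (points), by cluster and outside clusters, with the median as a bar. The cluster on chromosome 2 holds both values below −5, the cluster on chromosome 9 has a median of −0.68, and the others have medians between 0.17 and 0.47.

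Levels differed widely between members. Per kilobase of exon, Zfp706, which encodes a small single-finger protein, was highest at 96.0 CPM, followed by Zfp809 at 30.1, Zfp938 at 24.1, Zfp869 at 16.5, and Zfp948 at 15.7. The tested members had a median of 2.30 CPM per kilobase beside 1.21 over all genes tested. Zfp706 (chr15:36997027-37007773) varied little, with 486 ± 14.7 and 445 ± 55.7 CPM in ascending and descending GFPiSMC and 487 ± 31.1 and 494 ± 39.7 CPM in Tgfbr1/2iSMCKO libraries (SD, n = 3). Its log2 fold change between genotypes was 0.08 (SE 0.09), that of Zfp938 was −0.23 (SE 0.18), and that of Zfp948 was −0.18 (SE 0.15). Before scaling by length, 25 members were under 1 CPM on average, 80 between 1 and 20 CPM, and 25 above 20 CPM. Within groups of 3 libraries the median coefficient of variation of the tested members was 0.248, beside 0.324 over all genes tested.

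A few members differed more between libraries of a group than between genotypes, and 2 were chosen after their values were seen. In both, the 2 libraries of a single mouse could differ as widely, so the spread is not one between mice alone. Zfp708 on chromosome 13 had between 124 and 291 counts in GFPiSMC, but 369, 242, and 1 in ascending and 0, 288, and 236 in descending Tgfbr1/2iSMCKO libraries. It shares 94.6% of its windows with Gm28557, a gene on the same strand that covers it. In the libraries with 1 and 0 counts of Zfp708, Gm28557 had its highest counts, 398 and 237, beside 20 to 180 in the other 10 libraries. Summed over both genes, the level was 10.03 ± 4.78 and 12.2 ± 3.28 CPM in ascending and descending GFPiSMC and 15.4 ± 2.20 and 12.4 ± 3.78 CPM in Tgfbr1/2iSMCKO libraries (SD, n = 3), and the libraries at 0 and 1 no longer stood apart.

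**Figure D5:**
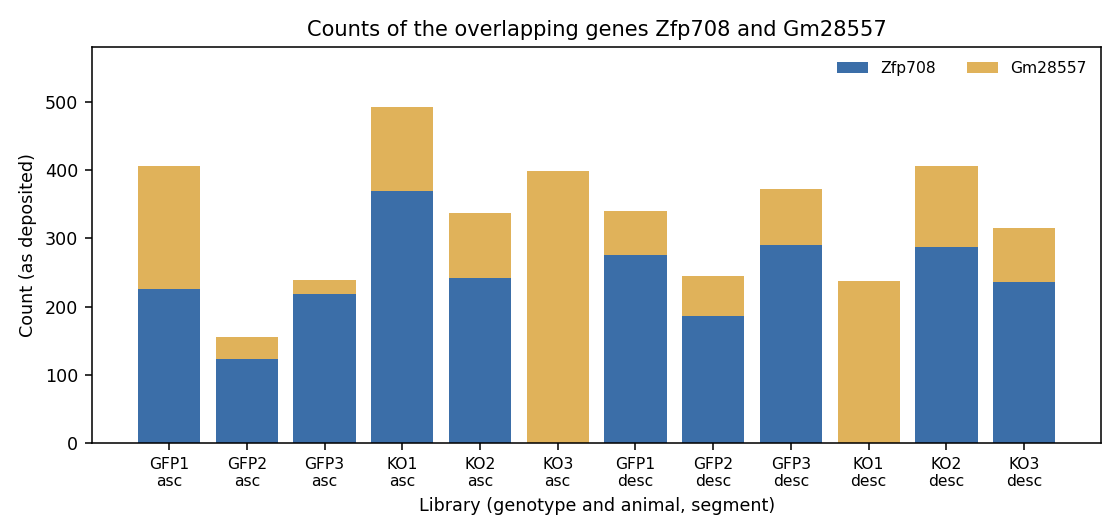
Deposited counts of Zfp708 (lower bars) and of Gm28557, which overlaps it (upper bars), stacked for each of the 12 libraries of GFPiSMC (GFP) and Tgfbr1/2iSMCKO (KO) mice. The KO3 ascending and KO1 descending libraries have 1 and 0 counts of Zfp708 and 398 and 237 of Gm28557.

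Zfp703, a transcriptional corepressor gene on chromosome 8 with a human counterpart amplified in breast cancer, had 1216, 50, and 827 counts in ascending and 839, 857, and 23 in descending GFPiSMC libraries. In Tgfbr1/2iSMCKO it had 1268, 510, and 1119 counts in the ascending and 8, 315, and 21 in the descending segment. Low libraries were found in both genotypes. GFPiSMC replicate 1 was high in both segments, Tgfbr1/2iSMCKO replicate 1 was high in the ascending and low in the descending segment, and in Tgfbr1/2iSMCKO each mouse had fewer counts in the descending segment. Its antisense neighbour Gm45371 had between 6 and 33 counts, and the cause of the low libraries of Zfp703 was not tested. Of the 116 tested members, 11 had their highest values in both libraries of Tgfbr1/2iSMCKO replicate 3, Zfp775, Zfp784, and Zfp790 among them, beside 9.21% of all genes tested.

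Partners of KRAB zinc finger proteins were also measured. All 31 genes of a list of corepressors, histone and DNA methyltransferases, and heterochromatin proteins were tested, and 0 passed the thresholds in either direction between genotypes, by edgeR, over both segments or within a segment. An unadjusted p under 0.05 over both segments was reached by 2 of the 31, beside 16.1% of all genes tested. Trim28 was at 70.1, 47.7, and 50.5 CPM in ascending GFPiSMC and 57.9, 60.7, and 51.4 CPM in ascending Tgfbr1/2iSMCKO libraries. In the descending segment it was at 74.9, 73.6, and 58.7 CPM in GFPiSMC and 59.1, 38.7, and 50.2 CPM in Tgfbr1/2iSMCKO libraries. Its log2 fold change was −0.24 (SE 0.16) over both segments, 0.01 (SE 0.21) in the ascending and −0.49 (SE 0.21) in the descending segment. Setdb1 had −0.17 (SE 0.23), 0.29 (SE 0.27), and −0.62 (SE 0.28) in the same order. Over both segments, the values of the list were between −0.43, for the histone deacetylase Hdac2, and 0.80, for the histone methyltransferase Suv39h1. Between segments 0 of the 31 passed the test, with 0 at an unadjusted p under 0.05 beside 5.58% of all genes.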

How the data were processed

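RNA of GFP+ SMCs sorted from single aortic segments was sequenced in 12 libraries. The authors trimmed reads with Trim Galore, aligned them with HISAT2 to GRCm38, and quantified GENCODE M15 models with StringTie. The deposited values are whole-number counts per gene, without normalization between libraries. No strand setting is given in the sources used here. Symbols and coordinates came from GENCODE M21 (52403 of 52636 genes). Members and lists were chosen with earlier results of these data known.

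Counts were analysed with edgeR 4.0.16 in R 4.3.3 (filterByExpr on 4 groups, TMM factors, quasi-likelihood fits, Benjamini-Hochberg adjustment over 22320 genes). The genotype and segment effects came from an additive fit and the within-segment effects and their difference from a fit of 4 group means. Between genotypes a gene passed with a log2 fold change beyond 1 in size at an adjusted p below 0.05, and in the tests of segment at that adjusted p alone. Libraries entered the fits as separate units although each of the 3 mice per genotype gave 2, so p values measure the spread between libraries, and counts summed per mouse were fitted as an alternative. Named genes were members silent in 1 genotype, past the thresholds, among the 5 highest per kilobase, or among the 3 smallest p of each segment test, together with changed neighbours within 500 kb, Trim28, Setdb1, Tgfbr1, and Tgfbr2. Members alike in protein sequence were not sought, and shared windows of 50 bases in GENCODE M21 transcripts were used instead. The finger and KRAB patterns were sought in the longest reading frame of each gene's coding transcripts. Alternatives were DESeq2 1.42.0, other scaling and filters, each mouse left out, a replicate block, and counts summed per mouse.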

Additional observations from a re-analysis of the deposited data

Results flagged for a closer look

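For Zfp839 on chromosome 12 the genotypes did not overlap in either segment, and the direction was opposite in the 2 segments. The share of all genes tested with this pattern is not given here, and some margins were small. In the ascending segment the Tgfbr1/2iSMCKO libraries had 4.74, 3.83, and 4.99 CPM, all below the GFPiSMC libraries at 5.54, 5.53, and 5.25 CPM. In the descending segment they had 5.84, 5.57, and 10.4 CPM, all above the GFPiSMC libraries at 4.72, 5.26, and 5.22 CPM. The difference of the genotype effect between segments was 0.78 on the log2 scale (SE 0.42) and had an adjusted p of 1 by edgeR over all genes tested.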

How the results depend on the processing

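Over both segments, 2 members were lower in Tgfbr1/2iSMCKO under each alternative of scaling and filter by edgeR, 3 with DESeq2, 1 (Zfp971) with counts summed per animal, and 2 to 3 when each mouse was left out; 0 to 1 were higher when each mouse was left out. Zfp970 had a log2 fold change of −10.73 without Tgfbr1/2iSMCKO replicate 3, and Zfp971 of −10.59 without replicate 1. In the ascending segment, 0 to 2 members were lower when each mouse was left out, with 0 without GFPiSMC replicate 1 or 2. In the descending segment, 2 members were lower and 0 higher without the filter on low counts, and leaving out each mouse gave 1 to 2 lower and 0 higher. The difference between segments was called for 1 member with DESeq2. Members silent in Tgfbr1/2iSMCKO numbered 1 with at most 3 counts allowed in every library and 1 to 5 when each mouse was left out; those silent in GFPiSMC numbered 1 with at most 10 counts in all 6 libraries together and 1 to 3 when each mouse was left out. With library size alone, the summed level was 2094 and 2047 CPM in ascending and descending GFPiSMC and 2325 and 2383 CPM in Tgfbr1/2iSMCKO libraries. The causes of these changes were not tested.

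Same-numbered mice of different genotypes share only a number: after removal of group means their correlation was between −0.517 and 0.219. With the replicate block, 1 member was lower in the ascending and 0 higher in the descending segment; over both segments the count was 2. The segments of a mouse correlated at between −0.243 and 0.665, and the block by animal called no member between segments. The 14 untested members had too few counts, and whether depth or reads shared with copies set this was not tested. Reads shared between copies limit the values of the genes from Gm14295 to Zfp971.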

Other observations

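Members outside chromosome 2 with counts too few to test include Zfp853 and Zfp935. Zfp853 on chromosome 5 was at 0 in 5 of the 6 Tgfbr1/2iSMCKO libraries and at 5 counts in the other, and had between 0 and 8 counts in GFPiSMC. Zfp935 on chromosome 13 had 22 counts in the descending library of Tgfbr1/2iSMCKO replicate 3, 2 in that of replicate 1, and 0 to 1 in GFPiSMC. All windows of its transcript (100%) were shared with another gene, and Gm49359, which overlaps it on the same strand, had between 270 and 707 counts. Both values rest on few reads, and neither gene entered a test.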
